A study of Mus musculus with 16 samples.

Results

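Lysosomal enzymes, their cofactors, lysosomal membrane proteins, proton pump subunits and the transcription factors that drive their genes were followed in injured mouse striatum. The list holds 49 genes, chosen by gene symbol, and 48 of them are in the deposited table of 19457 genes. All 48 passed the filter on low counts and were tested, among 18813 genes in all. The remaining gene, Atp6v0d2, is not analysed here.

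The lysosome is the acidic compartment in which a cell breaks down material taken up from outside or delivered by autophagy. A proton pump, the V-ATPase, acidifies it, soluble hydrolases cut proteins, lipids and sugar chains, and heavily glycosylated membrane proteins line its wall. TFEB, TFE3 and MITF are related transcription factors that bind a short promoter motif and raise many of these genes together. In the brain, microglia and macrophages that clear debris depend on this machinery, and inherited loss of single hydrolases causes storage diseases.

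RNA from the striatum was sequenced in wild-type mice (WT) and in mice labelled GS, taken to carry the LRRK2 G2019S kinase variant named in the series title. WT intact and GS intact tissue received no injection, and the other 6 groups were WT or GS striatum taken 6 h, 3 d or 15 d after ATP, a signal of cell damage, was injected into the striatum of 1 side (0.8 µl at 500 mM). Each of the 8 groups had 2 libraries, named biological replicates in the labels. The age, sex and strain of the mice, and how the GS animals carry the variant, are not stated in the labels.

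Total counts ran from 49220578 to 63948110 per library. Markers of striatal projection neurons were present in every library (9 of 9 genes, summed level 6270 to 10849 CPM, the count scaled to library size with TMM). The cortical neuron gene Slc17a7 varied from 4.47 to 135.7 CPM, with the highest value in WT intact replicate 1, then WT 6 h replicate 2 (72.7 CPM) and WT 15 d replicate 1 (35.0 CPM). At 3 d and at 15 d, replicate 1 of WT stood apart with the lowest lysosomal and microglial levels of its stage. Because whole tissue was sequenced, a change in the number of cells that express a gene and a change in RNA per cell cannot be told apart. Of the 48 members, 24 overlap another RefSeq gene, among them Ctsa, Ctsb, Ctsz, Hexa, Galns, Cln3, Sgsh, Idua and Tmem175. Whether the counting used strand is not given, so the values of these 24 are uncertain.

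Lysosomal transcripts rose late after the injury, not at 6 h. The 48 genes together held 5110 and 5155 CPM in WT intact striatum, 5070 and 5273 at 6 h, 7305 and 9286 at 3 d and 7584 and 10692 at 15 d. In GS they held 5475 and 5375 CPM in intact striatum, 5366 and 5444 at 6 h, 9025 and 10457 at 3 d and 10375 and 12904 at 15 d. Every library at 3 d and 15 d was above every intact and 6 h library, and the members' part of all counts went from between 0.499 and 0.551% in the earlier libraries to between 0.719 and 1.33% in the later ones.

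Single genes were tested against intact tissue of the same genotype with edgeR's quasi-likelihood test, and a gene is called where its Benjamini-Hochberg adjusted p over all genes tested is under 0.05. In WT at 3 d, 26 of 48 members were higher and 3 lower, where 14.7% of all genes tested were called higher and 12.7% lower. The median log2 fold change was 0.36 for the members and -0.01 for all genes. In GS at 3 d, 30 members were higher and 3 lower (18.6% and 16.4% of all genes), with a median of 0.65. At 15 d the counts were 31 higher and 2 lower in WT (14.2% and 11.2% of all genes, members' median 0.70) and 34 higher and 3 lower in GS (19.4% and 17.6%, median 0.86). At least 2-fold higher calls numbered 12 in WT and 16 in GS at 3 d (5.43% and 6.99% of all genes), and 18 and 21 at 15 d (5.97% and 7.97%).

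All 26 members called higher in WT at 3 d were among the 30 of GS, and 30 of the 31 called in WT at 15 d were among the 34 of GS. Of the members called lower, 0 of the 3 in WT at 3 d were among the 3 of GS. At 15 d the 2 called lower in WT were both among the 3 of GS. The overlap of calls between genotypes over all genes was not measured. Over the 6 comparisons with intact tissue, which share the intact libraries of each genotype, 36 members were higher at least once (27.8% of all genes), 6 were lower at least once (26.7%), none was both (4.03%) and 6 were never called (41.5%). The last 6 were Ctsk, Arsa, Smpd1, Ids, Neu1 and Atp6v1a. The count of 29 in WT at 3 d was 11 (all higher) with the cortical marker level as a covariate. It also fell without either WT intact library and without WT 3 d replicate 2. Slc17a7 was at 135.7 and 15.6 CPM in WT intact striatum and at 8.04 and 5.42 in WT at 3 d. In that comparison 5 of 7 cortical markers were called lower (12.7% of all genes). The covariate thus follows stage, and its part in the lost calls cannot be told apart from the injury response.

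**Figure D1:**
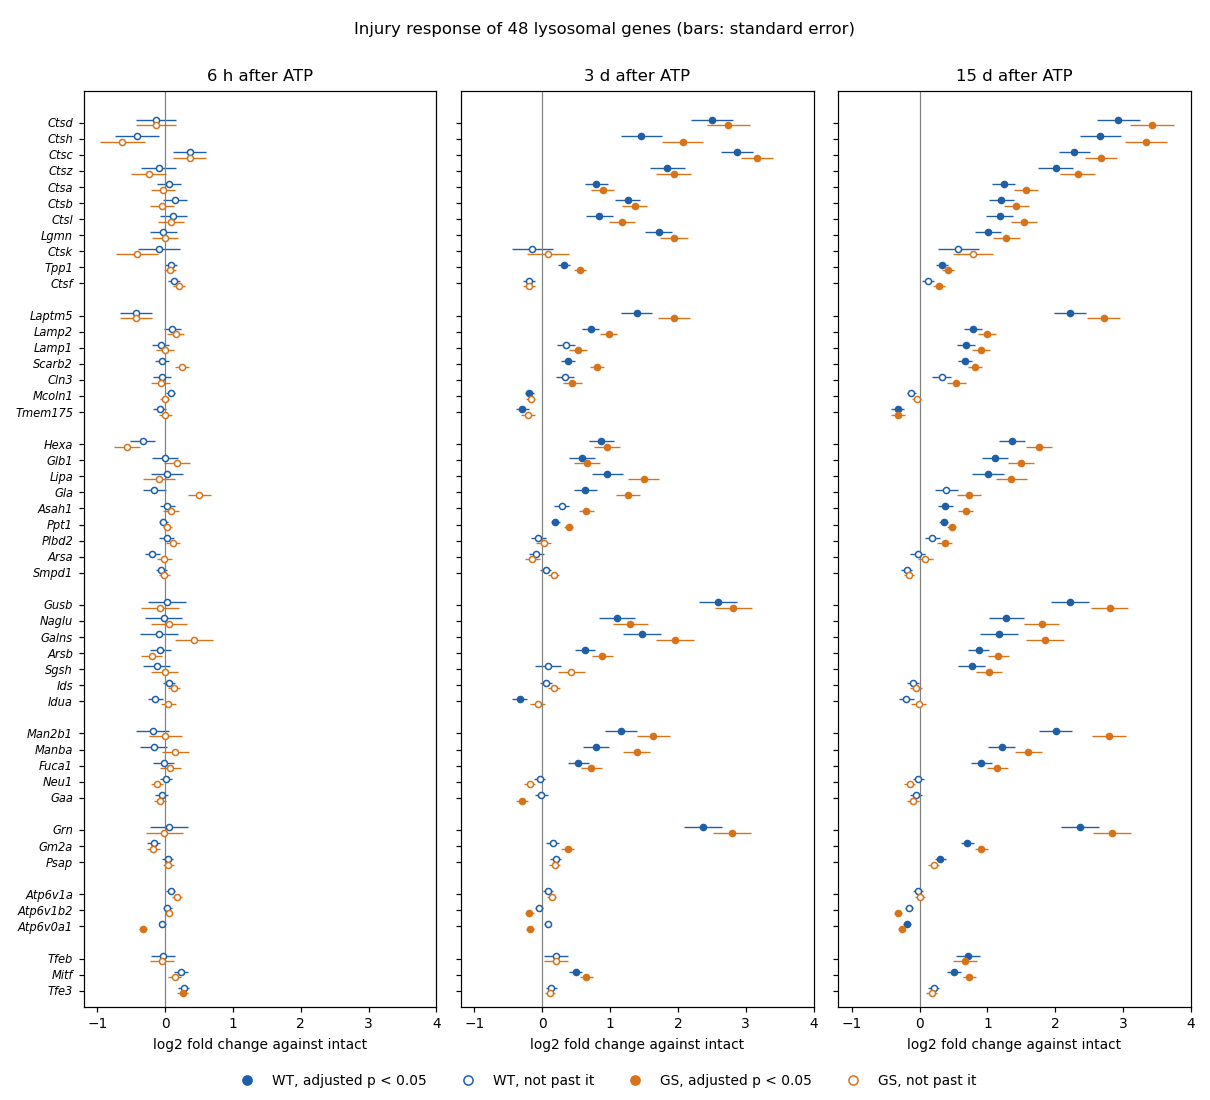
Log2 fold change against intact tissue of the same genotype for the 48 genes, grouped by role from proteases at the top to transcription factors at the bottom, at 6 h, 3 d and 15 d (WT blue, GS orange; bars are standard errors, filled points passed the adjusted p). Points lie near 0 at 6 h, and at 3 d and 15 d most hydrolases move to the right while the 3 proton pump subunits stay near 0, with the furthest points for Ctsc at 3 d and Ctsd at 15 d.

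Promoters were searched because these genes moved together. In the 250 bases before their RefSeq starts (RefSeq, GRCm38.p6), 42 of the 48 members had an entry. The letters CACGTG, the core of the motif that TFEB binds and the same on both strands, were in 15 of 42 members (35.7%) and in 6.86% of all 27025 genes with an entry. The longer TCACGTGA, which contains it and is also its own reverse complement, was in 6 of 42 (14.3%) and in 0.907% of all genes. Those 6 were Ctsd, Ctsa, Gla, Cln3, Atp6v1a and Mcoln1. The 4 of them with the largest change in WT at 3 d are shown with 11 bases either side and the motif in capitals, at GRCm38.p6 positions chr7:142387908-142387937 (Ctsd, minus strand), chr2:164833749-164833778 (Ctsa, plus strand), chrX:134601215-134601244 and chrX:134601182-134601211 (Gla, minus strand, 2 sites) and chr7:126583340-126583369 (Cln3, minus strand).
Ctsd: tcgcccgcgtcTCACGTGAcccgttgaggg
Ctsa: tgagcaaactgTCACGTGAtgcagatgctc
Gla, site 1: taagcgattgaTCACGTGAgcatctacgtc
Gla, site 2: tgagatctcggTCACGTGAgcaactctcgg
Cln3: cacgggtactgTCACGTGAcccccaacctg
The motif began 99 bases before the start in Ctsd, 13 in Ctsa, 228 and 195 in Gla and 122 in Cln3, where for Ctsa and Cln3 the start is one inside the gene's span. In the GENCODE vM21 annotation each of these sites also lies in an annotated UTR exon, of the gene itself for Ctsd, Ctsa and Cln3 and of Hnrnph2 on the other strand for Gla.

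Members with and without the motif both rose. Of the 15 members with CACGTG, 7 were called higher and 1 lower in WT at 3 d, with a median log2 fold change of 0.35, and of the 27 without it 16 were higher and 2 lower, with a median of 0.38. Of the 6 with TCACGTGA, Ctsd rose most (2.50), Ctsa (0.80) and Gla (0.64) rose, Cln3 (0.33 ± 0.14) and Atp6v1a (0.09 ± 0.07) were not called, and Mcoln1 fell (-0.19). A match is a run of letters, not a measured binding site.

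Among the 11 proteases, 9 rose in WT and 9 in GS at 3 d, and 9 and 10 at 15 d, with none lower. Their medians at 3 d were 1.26 in WT and 1.37 in GS. Cathepsin D (Ctsd, chromosome 7, 142375910 to 142387827 in GRCm38), the main aspartic protease of the lysosome, held, in WT libraries, 282 and 284 CPM in intact striatum, 253 and 261 at 6 h, 1119 and 2082 at 3 d and 1368 and 2962 at 15 d. In GS it held 313 and 323 CPM in intact striatum, 271 and 308 at 6 h, 1916 and 2346 at 3 d and 2854 and 4007 at 15 d. Every library of 3 d and 15 d was above every intact and 6 h library. The log2 fold change was 2.50 ± 0.31 (± standard error) in WT at 3 d and 2.93 ± 0.31 at 15 d, and 2.74 ± 0.31 and 3.43 ± 0.32 in GS, with edgeR adjusted p of 8.81e-05, 3.55e-05, 2.47e-05 and 4.27e-06.

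Cathepsin C (Ctsc, chromosome 7, 88278024 to 88315861), which activates serine proteases of immune cells, had the largest change of any member at 3 d. Its levels were, in WT, 5.89 and 5.33 CPM in intact striatum, 7.77 and 6.64 at 6 h, 40.4 and 42.03 at 3 d and 21.7 and 33.1 at 15 d and, in GS, 6.57 and 4.74 CPM in intact striatum, 7.79 and 6.71 at 6 h, 40.2 and 61.2 at 3 d and 31.5 and 40.96 at 15 d. It rose by 2.88 ± 0.23 on the log2 scale in WT at 3 d (edgeR adjusted p = 1.08e-05) and by 3.16 ± 0.24 in GS (4.37e-06). The 15 d libraries lay between the intact and the 3 d levels in WT, and in GS 1 of them was just above the lower 3 d library.

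Legumain (Lgmn), an asparaginyl endopeptidase that processes cathepsins, followed the same early course. WT libraries held 86.6 and 90.8 CPM in intact striatum, 85.1 and 89.3 at 6 h, 226 and 358 at 3 d and 146 and 212 at 15 d, and GS libraries 98.3 and 86.6 CPM in intact striatum, 92.8 and 92.1 at 6 h, 312 and 398 at 3 d and 198 and 251 at 15 d. Its rise was 1.72 ± 0.20 in WT and 1.94 ± 0.20 in GS at 3 d, and 1.01 ± 0.20 and 1.28 ± 0.20 at 15 d. All 4 libraries of 15 d stayed above all intact libraries.

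Cathepsin H (Ctsh), an aminopeptidase, took the opposite course and was highest at 15 d. It held, in WT, 3.53 and 2.85 CPM in intact striatum, 3.02 and 1.77 at 6 h, 6.79 and 10.7 at 3 d and 15.2 and 25.5 at 15 d and, in GS, 3.30 and 2.55 CPM in intact striatum, 1.95 and 1.81 at 6 h, 10.2 and 14.4 at 3 d and 25.6 and 33.7 at 15 d. Log2 fold changes went from 1.46 ± 0.30 at 3 d to 2.67 ± 0.30 at 15 d in WT, and from 2.07 ± 0.30 to 3.34 ± 0.31 in GS. At each later stage every library was above the intact range, and every 15 d library was above every 3 d library.

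Cathepsin Z (Ctsz), a carboxypeptidase, rose by 3 d and was not called different between 3 d and 15 d. Its values were, in WT, 39.02 and 38.5 CPM in intact striatum, 35.2 and 37.6 at 6 h, 105 and 173 at 3 d and 108 and 204 at 15 d and, in GS, 45.1 and 45.8 CPM in intact striatum, 38.7 and 38.1 at 6 h, 159 and 189.8 at 3 d and 187 and 270.2 at 15 d, with rises of 1.85 ± 0.26 and 1.94 ± 0.26 at 3 d. The broadly expressed cathepsin B (Ctsb) rose by 1.26 ± 0.18 in WT and 1.37 ± 0.18 in GS at 3 d, cathepsin L (Ctsl) by 0.84 ± 0.20 and 1.18 ± 0.20, and cathepsin A (Ctsa), which also protects other lysosomal enzymes, by 0.80 ± 0.17 and 0.89 ± 0.17. Tripeptidyl peptidase 1 (Tpp1) moved less, by 0.31 ± 0.09 and 0.55 ± 0.09. Cathepsin F (Ctsf) was not called at 3 d (-0.20 ± 0.09 in WT, -0.20 ± 0.09 in GS) and was called higher in GS at 15 d alone (0.29 ± 0.09). Cathepsin K (Ctsk), the collagenase of osteoclasts, stayed between 1.13 and 3.55 CPM in all 16 libraries and was never called.

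**Figure D2:**
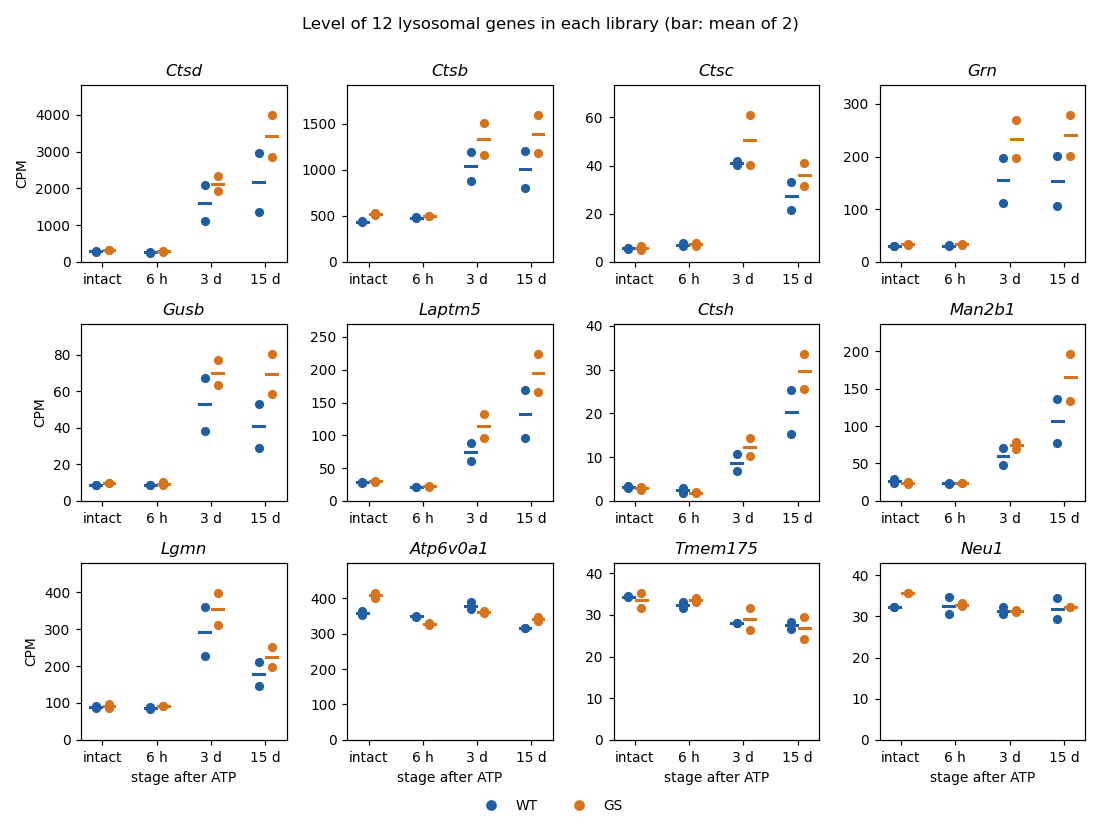
Level in CPM (linear axes from 0) of 12 genes in each library by stage (WT blue, GS orange; points are libraries and short bars the mean of 2). The first 9 panels show genes above their intact level in every library at 3 d and 15 d. Ctsc and Lgmn stand higher at 3 d than at 15 d, and Laptm5, Ctsh and Man2b1 are highest at 15 d. Atp6v0a1, Tmem175 and Neu1 change less at these stages, with Atp6v0a1 and Tmem175 called lower in some comparisons with intact tissue.

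Of the 7 membrane proteins, 3 rose and 2 fell in WT at 3 d, and 5 rose and none fell in GS. Laptm5, a lysosomal transmembrane protein of blood and microglial cells, had the largest change. WT libraries held 28.8 and 28.1 CPM in intact striatum, 21.3 and 21.05 at 6 h, 60.8 and 88.3 at 3 d and 95.8 and 169 at 15 d, and GS libraries 30.9 and 28.7 CPM in intact striatum, 21.3 and 22.99 at 6 h, 96.4 and 132 at 3 d and 166 and 225 at 15 d. The 6 h libraries were all below the intact ones and the later libraries all above them. Its log2 fold change was -0.43 ± 0.24 in WT at 6 h (edgeR adjusted p = 0.335) and -0.43 ± 0.24 in GS (0.258), neither called, then 1.39 ± 0.23 and 1.94 ± 0.24 at 3 d and 2.22 ± 0.24 and 2.71 ± 0.24 at 15 d.

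The general wall proteins changed less. Lamp2, which also takes part in autophagy, rose by 0.71 ± 0.13 in WT and 0.98 ± 0.13 in GS at 3 d. Lamp1 was not called in WT at 3 d (0.35 ± 0.13, edgeR adjusted p = 0.0626), rose in GS (0.52 ± 0.13) and rose in both at 15 d (0.69 and 0.91). Scarb2, the receptor that carries glucocerebrosidase to the lysosome, rose by 0.38 ± 0.10 in WT and 0.80 ± 0.10 in GS at 3 d. Cln3, the Batten disease protein, was called higher in GS alone (0.44 ± 0.14 at 3 d and 0.54 ± 0.14 at 15 d, against 0.33 ± 0.14 and 0.32 ± 0.14 in WT), and its difference between the genotypes' responses was not called at either time (edgeR adjusted p = 0.866 and 0.928).

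Neither ion channel of the lysosomal membrane was called higher. Tmem175, an endolysosomal potassium and proton channel, held, in WT, 34.3 and 34.4 CPM in intact striatum, 33.2 and 31.7 at 6 h, 28.1 and 28.02 at 3 d and 28.2 and 26.7 at 15 d and, in GS, 35.3 and 31.6 CPM in intact striatum, 33.1 and 33.99 at 6 h, 26.4 and 31.6 at 3 d and 24.3 and 29.4 at 15 d. In WT both libraries of each later stage were below both intact ones, whereas in GS 1 of the 3 d libraries was level with the lower intact library. It fell by 0.29 on the log2 scale in WT at 3 d and by 0.32 in both genotypes at 15 d, and was not called in GS at 3 d (-0.21 ± 0.10). Of 25 alternative settings, 10 ended its call in WT at 3 d, 5 in WT at 15 d and 4 in GS at 15 d. Mcoln1, the TRPML1 calcium channel, fell slightly in WT at 3 d (-0.19 ± 0.07, edgeR adjusted p = 0.049), a call that 18 of 25 alternative settings ended.

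Of the 9 lipid and glycolipid hydrolases, 5 rose in WT and 6 in GS at 3 d, and 5 and 7 at 15 d, with none lower. Lysosomal acid lipase (Lipa), which frees cholesterol from its esters, held, in WT, 17.2 and 18.5 CPM in intact striatum, 17.4 and 18.99 at 6 h, 27.4 and 41.9 at 3 d and 28.00 and 43.8 at 15 d and, in GS, 17.9 and 18.95 CPM in intact striatum, 17.5 and 17.2 at 6 h, 40.2 and 63.5 at 3 d and 42.1 and 52.2 at 15 d. All 8 libraries of 3 d and 15 d were above the intact ones, and its rises at 3 d were 0.96 ± 0.23 in WT and 1.49 ± 0.23 in GS. Hexa, the alpha subunit of beta-hexosaminidase, rose by 0.87 ± 0.19 and 0.96 ± 0.19 at 3 d and by 1.37 ± 0.19 and 1.77 ± 0.19 at 15 d. Beta-galactosidase (Glb1) rose by 0.58 ± 0.19 and 0.66 ± 0.19 at 3 d and by 1.11 ± 0.19 and 1.50 ± 0.19 at 15 d. Of 25 alternative settings, 6 ended its WT call at 3 d, limma-voom among them. The calls of Tpp1, Scarb2, Gla and Fuca1 in WT at 3 d were each ended by 5 settings. So were those of Cln3 in GS at 3 d and Asah1 in WT at 15 d.

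Alpha-galactosidase A (Gla) had its larger changes at 3 d, with 0.64 and 1.26 at 3 d in WT and GS, and 0.40 ± 0.17 (not called) and 0.73 at 15 d. Palmitoyl-protein thioesterase 1 (Ppt1) rose by 0.19 ± 0.07 in WT and 0.39 ± 0.07 in GS at 3 d, where 16 of 25 alternative settings ended the WT call and none the GS call. Acid ceramidase (Asah1) rose at 3 d in GS (0.65 ± 0.11) and at 15 d in both. Plbd2 was called in GS at 15 d alone (0.37 ± 0.11). Arylsulfatase A (Arsa) and acid sphingomyelinase (Smpd1) were never called, with log2 fold changes at 3 d of -0.09 ± 0.11 and 0.05 ± 0.08 in WT.

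Of the 7 glycosaminoglycan hydrolases, 4 rose in each genotype at 3 d and 5 at 15 d, and 1 fell in WT at 3 d. Beta-glucuronidase (Gusb, chromosome 5, 129989011 to 130003049) was second only to Ctsc at 3 d. It held, in WT, 8.71 and 8.86 CPM in intact striatum, 8.90 and 8.97 at 6 h, 38.5 and 67.2 at 3 d and 29.03 and 52.9 at 15 d and, in GS, 9.93 and 10.04 CPM in intact striatum, 8.67 and 10.3 at 6 h, 63.2 and 77.4 at 3 d and 58.6 and 80.7 at 15 d. Its rise was 2.59 ± 0.28 in WT (edgeR adjusted p = 3.57e-05) and 2.82 ± 0.28 in GS (9.96e-06) at 3 d, and 2.22 ± 0.28 and 2.80 ± 0.28 at 15 d. Even the lowest library of the later stages, WT 15 d replicate 1, was above every intact and 6 h library.

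Galns, which removes sulfate from keratan and chondroitin sulfate, held, in WT, 3.69 and 3.79 CPM in intact striatum, 3.32 and 3.72 at 6 h, 7.51 and 13.2 at 3 d and 6.70 and 10.2 at 15 d and, in GS, 3.50 and 3.08 CPM in intact striatum, 4.00 and 4.83 at 6 h, 10.04 and 15.5 at 3 d and 10.5 and 13.3 at 15 d. Its libraries at 3 d and 15 d did not overlap the intact range, and the rise at 3 d was 1.47 ± 0.28 in WT and 1.96 ± 0.28 in GS. Naglu and Arsb, which act on heparan and dermatan sulfate, rose at both later stages (1.10 ± 0.26 and 1.30 ± 0.26 for Naglu and 0.63 ± 0.15 and 0.89 ± 0.15 for Arsb at 3 d). Sgsh was called at 15 d only, by 0.77 ± 0.19 in WT and 1.03 ± 0.19 in GS.

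Alpha-L-iduronidase (Idua) was the member with the largest fall in WT at 3 d. Its WT libraries held 15.5 and 16.7 CPM in intact striatum, 14.4 and 14.7 at 6 h, 11.6 and 13.9 at 3 d and 13.8 and 14.2 at 15 d, and its GS libraries 14.9 and 13.5 CPM in intact striatum, 14.00 and 15.4 at 6 h, 12.6 and 14.5 at 3 d and 13.9 and 14.3 at 15 d. The WT libraries of 3 d were both below the intact ones, and the change was -0.33 ± 0.11 (edgeR adjusted p = 0.036). Of 25 alternative settings, 6 ended this call. In GS the 3 d and intact libraries overlapped (-0.07 ± 0.11, adjusted p = 0.666 by edgeR). Iduronate sulfatase (Ids) was never called and stayed between 351 and 461 CPM.

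Of the 5 hydrolases of glycogen and glycoproteins, 3 rose in both genotypes at 3 d and at 15 d. Alpha-mannosidase (Man2b1) held, in WT, 28.98 and 24.00 CPM in intact striatum, 22.5 and 24.2 at 6 h, 47.8 and 70.99 at 3 d and 77.2 and 136 at 15 d and, in GS, 25.4 and 22.2 CPM in intact striatum, 23.6 and 24.2 at 6 h, 69.8 and 78.4 at 3 d and 133 and 197 at 15 d. Each 15 d library was above both 3 d libraries of its genotype. Its log2 fold change was 1.17 ± 0.24 and 1.64 ± 0.24 at 3 d and 2.01 ± 0.24 and 2.79 ± 0.25 at 15 d. Beta-mannosidase (Manba) had, in WT, 4.43 and 3.92 CPM in intact striatum, 3.78 and 3.65 at 6 h, 6.21 and 8.24 at 3 d and 9.03 and 10.3 at 15 d and, in GS, 3.74 and 3.59 CPM in intact striatum, 3.90 and 4.25 at 6 h, 7.90 and 11.4 at 3 d and 9.68 and 12.6 at 15 d, all later libraries above the intact ones, and rose by 0.79 ± 0.20 and 1.39 ± 0.20 at 3 d. Alpha-fucosidase (Fuca1) rose by 0.53 ± 0.16 and 0.72 ± 0.16.

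Acid alpha-glucosidase (Gaa), which breaks down glycogen, did not follow its group. It held, in WT, 301 and 307 CPM in intact striatum, 283 and 304 at 6 h, 318 and 284 at 3 d and 275 and 310.4 at 15 d and, in GS, 339 and 312 CPM in intact striatum, 309 and 311 at 6 h, 289 and 240.0 at 3 d and 292 and 315 at 15 d. It fell in GS at 3 d (-0.30 ± 0.09, edgeR adjusted p = 0.0206), with both libraries below both intact ones, and its WT libraries overlapped (-0.01 ± 0.09). Of 25 alternative settings, 3 ended the GS call. Sialidase (Neu1) was never called (-0.04 ± 0.08 in WT and -0.19 ± 0.08 in GS at 3 d).

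The 3 cofactors moved by very unlike amounts. Progranulin (Grn, chromosome 11, 102430507 to 102436809), a secreted and lysosomal protein that supports several hydrolases, held, in WT, 29.97 and 29.7 CPM in intact striatum, 30.4 and 31.7 at 6 h, 113 and 197 at 3 d and 107 and 201 at 15 d and, in GS, 32.5 and 34.6 CPM in intact striatum, 33.9 and 32.5 at 6 h, 196 and 269.6 at 3 d and 200.3 and 279.9 at 15 d. It rose by 2.37 ± 0.28 in WT and 2.80 ± 0.28 in GS at 3 d (edgeR adjusted p = 6.75e-05 and 1.18e-05) and by 2.37 ± 0.28 and 2.84 ± 0.28 at 15 d. The GM2 activator (Gm2a), the cofactor of beta-hexosaminidase, was not called in WT at 3 d (0.15 ± 0.10), rose in GS at 3 d (0.38 ± 0.10) and rose at 15 d by 0.71 ± 0.10 in WT and 0.91 ± 0.10 in GS. Prosaposin (Psap), the precursor of the saposins, was called in WT at 15 d alone (0.31 ± 0.08, against 0.21 ± 0.08 in GS).

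The 3 proton pump subunits among the members did not rise with the enzymes. None of these 3 was called higher in any comparison. Further pump subunits were tested with the other lysosomal genes, and these statements do not cover them. Atp6v0a1, a subunit of the membrane domain that is abundant in neurons, fell in WT at 15 d (-0.18 ± 0.06) and in GS at all 3 times (-0.32 ± 0.06 at 6 h, -0.18 ± 0.06 at 3 d and -0.26 ± 0.06 at 15 d). Atp6v1b2, a subunit of the catalytic domain, fell in GS at 3 d (-0.19 ± 0.06) and 15 d (-0.32 ± 0.06), and Atp6v1a was never called. Of 25 alternative settings, 6 ended the Atp6v1b2 call in GS at 3 d. For Atp6v0a1, 6 ended the call in GS at 3 d and 6 that in WT at 15 d. The other calls of these 2 genes against intact tissue held under all 25. Of the same settings, 6 ended the call of Atp6v0a1 in WT from 3 d to 15 d. Beside these falls, general neuron markers were called lower for 4 of 8 genes at 3 d and 7 of 8 at 15 d in each genotype (summed level 4216 to 4618 CPM in intact tissue and 3092 to 3567 at 15 d). The part of that change in the pump subunits was not tested.

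Of the 3 transcription factor genes, Mitf was called higher at 3 d and 15 d, and Tfeb at 15 d only. Mitf rose by 0.50 ± 0.10 in WT and 0.65 ± 0.10 in GS at 3 d and by 0.51 ± 0.10 and 0.73 ± 0.10 at 15 d. Tfeb was not called at 3 d (0.20 ± 0.18 and 0.20 ± 0.18) and rose at 15 d by 0.72 ± 0.18 and 0.67 ± 0.18. Its change from 3 d to 15 d was not called in either genotype, and 3 of 25 alternative settings ended its 15 d call in each. Tfe3 was called only in GS at 6 h (0.26 ± 0.08, edgeR adjusted p = 0.0446), where WT gave 0.28 ± 0.08 (adjusted p = 0.068 by edgeR), and 11 of 25 alternative settings ended the GS call.

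At 6 h few members were called. In WT, edgeR called none of the 48 (2.54% of all genes were called higher and 1.55% lower), with 2 members at an unadjusted p under 0.05 (4.17%, against 20.4% of all genes), while DESeq2 called Tfe3 and limma-voom none. In GS, Tfe3 was higher and Atp6v0a1 lower (7.47% and 6.37% of all genes). The members' median log2 fold changes were -0.03 in WT and 0.00152 in GS. Microglia markers were below their intact level in all 4 libraries of this stage (238 to 257 CPM against 355 to 374), with 3 of 10 markers called lower in WT and 4 in GS. Members that pointed down beside them without being called were Hexa (-0.33 ± 0.19 in WT and -0.56 ± 0.19 in GS), Ctsh (-0.41 ± 0.32 and -0.63 ± 0.33) and Laptm5 (-0.43 in both), chosen after their values were seen. With the compared groups alone, Hexa and Laptm5 were called lower in both genotypes. The replicate block and the cortical marker covariate also called Hexa lower in GS.

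Lysosomal genes outside the list were checked with 72 others in the table (of 79 listed), which include sorting receptors, transporters and further pump subunits. In WT at 3 d, 27 rose and 4 fell (14.7% and 12.7% of all genes), with a median log2 fold change of 0.14. In GS at 3 d, 32 rose and 10 fell (18.6% and 16.4% of all genes), with a median of 0.29. At 15 d, 31 rose and 8 fell in WT (14.2% and 11.2% of all genes), and 38 rose and 12 fell in GS (19.4% and 17.6%). The largest rises in WT at 3 d were of Acp5, an acid phosphatase of macrophages and osteoclasts (3.76 ± 0.62, from a mean of 0.174 to 2.38 CPM), the macrophage protein Cd68 (2.72 ± 0.33), the metal transporter Slc11a1 (2.40 ± 0.40) and the peptide transporter Slc15a3 (2.08 ± 0.29). The 4 that fell were the peptide transporter Abcb9 (-0.38 ± 0.09), the polyamine transporter Atp13a2 (-0.34 ± 0.09), Gnptg, a subunit of the enzyme that tags hydrolases for the lysosome (-0.26 ± 0.07), and the pump subunit Atp6v0e2 (-0.21 ± 0.06).

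Between 3 d and 15 d few members were called, although 21 of 48 in each genotype had an unadjusted p under 0.05 (43.8%, against 18.8% of all genes in WT and 19.8% in GS) and 33 in WT and 35 in GS pointed higher. In WT, Ctsh (1.21 ± 0.28, edgeR adjusted p = 0.0315) and Gm2a (0.55 ± 0.10, 0.00846) rose and Atp6v0a1 fell (-0.26 ± 0.06, 0.0235), which are 2 higher and 1 lower where 1.63% and 1.57% of all genes were called. In GS, 6 rose and none fell (1.08% and 1.02% of all genes): Ctsh (1.27 ± 0.28), Man2b1 (1.16 ± 0.23), Glb1 (0.84 ± 0.19), Hexa (0.81 ± 0.19), Gm2a (0.53 ± 0.10) and Ctsf (0.49 ± 0.09). Both Hexa and its activator Gm2a are among these 6 genes, but 13 of 25 alternative settings ended the Hexa call and 2 the Gm2a call. Lgmn pointed down in both genotypes (-0.71 ± 0.20 in WT and -0.66 ± 0.19 in GS) without being called (edgeR adjusted p = 0.0625 and 0.0892), as did Ctsc (-0.59 ± 0.21 and -0.48 ± 0.21). By mean level, 28 of 48 members were highest at 15 d in WT and 11 at 3 d, and in GS 30 and 9, with the same highest stage in both genotypes for 35.

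These late counts rest on single libraries. In WT the count of 3 became 0 without WT 15 d replicate 2, 11 without WT 15 d replicate 1, 9 without WT 3 d replicate 2 and 1 without WT 3 d replicate 1. In GS the count of 6 became 0 without replicate 2 of 3 d or of 15 d, and 3 without either replicate 1 of those stages or without either GS 6 h library.

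**Figure D3:**
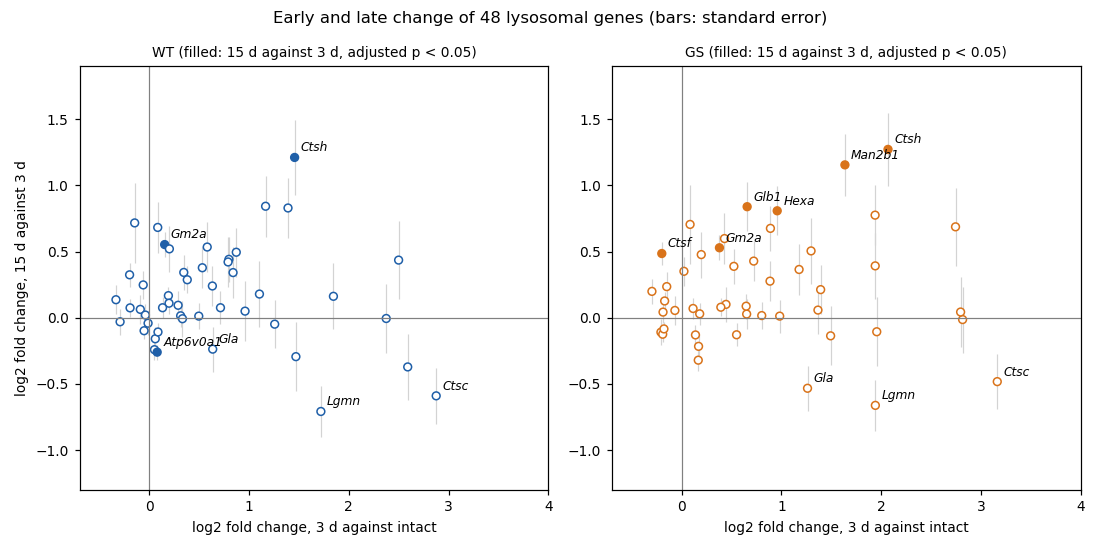
Log2 fold change from 3 d to 15 d against the change from intact to 3 d for the 48 genes, WT on the left and GS on the right (vertical bars are standard errors, filled points passed the adjusted p for 15 d against 3 d). Ctsh stands highest in both panels, Lgmn and Ctsc lie low on the right, and the genes with the largest early rise spread around 0 on the vertical axis; the 2 axes share the 3 d libraries.

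Between genotypes no member was called at any stage by edgeR. In intact striatum the members' median difference, GS minus WT, was 0.01, and 0.0159% of all genes were called in either direction. At 6 h the median was 0.05 (0.00532% of all genes called). With an unadjusted p under 0.05 there was 1 member in intact tissue (Atp6v0a1) and 1 at 6 h (Gla), each 2.08% of members where 10.9% and 6.83% of all genes had one, and limma-voom called none at any stage. DESeq2 called Atp6v0a1 in intact tissue and no member at the other stages.

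Atp6v0a1 was the member with the lowest unadjusted p between genotypes in intact tissue. Its levels were 353 and 363 CPM in WT intact and 401 and 415 in GS intact libraries, 346 and 350.1 (WT) against 323 and 329 (GS) at 6 h, 387 and 369 against 363 and 358 at 3 d, and 317 and 315 against 334 and 346 at 15 d. GS libraries were above WT before injury, below at 6 h and 3 d, and above again at 15 d, without overlap at any stage. Such separation was common. Of 18813 genes tested, 4219 had GS above WT without overlap in intact tissue, and 4157 had GS below at 6 h. At 3 d 2894 had GS below, and at 15 d 3118 had GS above. How many genes followed this order over all stages was not counted. For Atp6v0a1 the difference was 0.19 ± 0.06 in intact tissue (edgeR adjusted p = 0.295, unadjusted 0.00446). The gap between its GS and WT responses was -0.28 ± 0.08 at 6 h (edgeR adjusted p = 0.304, unadjusted 0.00288) and -0.26 ± 0.08 at 3 d (0.439, unadjusted 0.00563). DESeq2 called all 3 of these (adjusted p = 0.0273, 0.0175 and 0.0316), and edgeR and limma-voom none. All 3 use the same intact libraries of both genotypes, and both response gaps contain the intact difference, so they are not separate results.

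After injury most members pointed higher in GS. At 3 d the difference was positive for 40 of 48 members, with a median of 0.23, against 50.4% of all genes and a median of 0.00179. At 15 d it was positive for 43, with a median of 0.19, against 49.7% of all genes. An unadjusted p under 0.05 was reached by 9 members at 3 d and 13 at 15 d, all higher in GS (18.8% and 27.1% of members, 8.25% and 4.86% of all genes in either direction), but the edgeR adjusted p was at least 0.55 at 3 d and 0.969 at 15 d, and of all genes 0.0106% and 0.00532% were called. Examples at 15 d were Gusb (0.77 ± 0.25, 95% interval 0.23 to 1.31), Ctsd (0.66 ± 0.29, 0.04 to 1.29), Grn (0.64 ± 0.26, 0.08 to 1.20) and Man2b1 (0.63 ± 0.23, 0.14 to 1.12).

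One library of each genotype stood at the ends of the order for most members. Among the 26 members called higher in both genotypes at 3 d, WT replicate 1 was the lowest of the 4 libraries in 24 and GS replicate 2 the highest in 23. Among the 30 at 15 d, WT replicate 1 was lowest in 29 and GS replicate 2 highest in 28. Both GS libraries were above both WT libraries for 8 of 48 members at 3 d (15.4% of all genes) and 9 of 48 at 15 d (16.6% of all genes). Without WT 3 d replicate 1 the median difference at 3 d fell from 0.23 to 0.05 (31 of 48 positive, none with an unadjusted p under 0.05), and without WT 15 d replicate 1 that at 15 d fell from 0.19 to 0.08 (36 positive, none). Without replicate 2 of WT instead, the medians were 0.37 at 3 d and 0.33 at 15 d. Without GS 3 d replicate 2 the median at 3 d was 0.10 (33 positive, 1 with an unadjusted p under 0.05), and without GS 15 d replicate 2 that at 15 d was 0.10 (36 positive, none). Without GS 15 d replicate 1 it was 0.30. With the cortical marker covariate, the 13 members with an unadjusted edgeR p under 0.05 at 15 d became 3, and the 9 at 3 d stayed 9. With replicate number as a block, the counts were 14 at 3 d and 19 at 15 d.

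The test of the response itself also called no member. For GS response minus WT response edgeR called none of 48 at 6 h (0.0106% of all genes), at 3 d (0%) or at 15 d (0%), with 2, 6 and 1 members at an unadjusted p under 0.05 (9.42%, 9.92% and 5.46% of all genes). Single libraries moved these counts: at 3 d the 6 became 18 without WT 3 d replicate 2, 12 without GS 3 d replicate 1, 2 without replicate 1 of WT or GS intact, and 1 without WT 3 d replicate 1 or GS 3 d replicate 2. At 15 d the 1 became 23 without WT 15 d replicate 2, 2 without GS 15 d replicate 1 or either GS 3 d library, and 0 without WT 15 d replicate 1, GS 15 d replicate 2, WT intact replicate 1 or GS intact replicate 2. Besides Atp6v0a1 these included Gla at 6 h (0.66 ± 0.25), Scarb2 at 3 d (0.42 ± 0.15) and Man2b1 at 15 d (0.78 ± 0.33). The highest upper bound of the members' 95% intervals was 1.52 at 3 d and 1.57 at 15 d on the log2 scale.

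**Figure D4:**
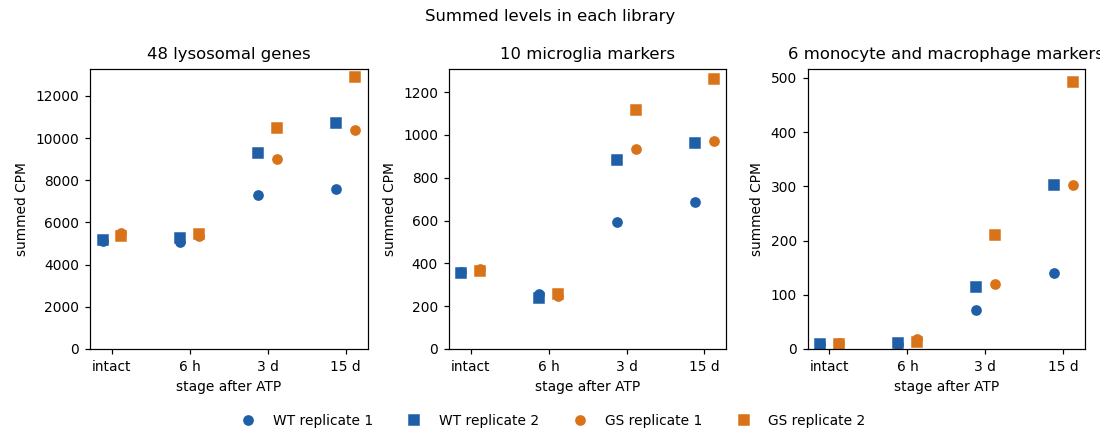
Summed level in CPM (linear axes from 0) of the 48 lysosomal genes, 10 microglia markers and 6 monocyte and macrophage markers in each library by stage (WT blue, GS orange; circles replicate 1, squares replicate 2). In all 3 panels WT replicate 1 is the lowest and GS replicate 2 the highest library at 3 d and at 15 d, while the 6 h libraries are below the intact ones for microglia markers and level with them for the lysosomal genes.

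Summed markers of phagocytes, like the members, were above their intact level at 3 d and 15 d. At 6 h the microglia markers were lower (238 to 257 CPM against 355 to 374 in intact tissue), while the members stayed level. The 10 microglia markers, all in the table, summed to 594 and 881 CPM in WT and 932 and 1116 in GS at 3 d. At 15 d they summed to 688 and 961 CPM in WT and 973 and 1259 in GS. At 3 d and again at 15 d, 9 of 10 in WT and 10 of 10 in GS were called higher. Of all genes, 14.7% were called higher at 3 d and 14.2% at 15 d in WT, and 18.6% and 19.4% in GS. The 6 monocyte and macrophage markers in the table (of 10 listed) summed to 8.79 to 11.4 CPM in intact tissue, 71.4 to 210.4 at 3 d and 140.3 to 493 at 15 d, with 5 of 6 called higher at 3 d and 3 of 6 at 15 d in each genotype. All 10 microglia markers also pointed higher in GS than in WT at 3 d and at 15 d, with none called. Other cell types moved too: astrocyte markers were called higher for 5 of 8 genes in WT and 6 of 8 in GS at 3 d, and 5 of 8 in each at 15 d. Between genotypes at 3 d, all 8 oligodendrocyte markers (6 with an unadjusted p under 0.05) and all 6 endothelial markers (none) pointed higher in GS, and at 15 d 0 of 8 and 4 of 6 did. The part of cell numbers in the lysosomal changes was not tested.

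Per kilobase of exon, prosaposin was the most abundant member in intact tissue and at 6 h, and cathepsin D at 3 d and 15 d. In WT intact tissue Psap stood at 367.8 CPM per kilobase, followed by Ctsd (120.5), Lamp1 (106.6), Ids (81.2) and Ctsb (71.8). At 6 h Psap was first (377.9 in WT and 417.9 in GS) and Ctsd second (109.4 and 123.0). At 3 d Ctsd was first in both genotypes (680.7 in WT and 906.3 in GS) and at 15 d again (920.9 and 1459), with Psap second. The intact order of the first 3 was the same in GS. At the low end, Manba, Ctsh, Ctsc and Ctsk were at 0.600, 0.709, 0.967 and 1.13 CPM per kilobase in WT intact tissue, so that 2 of the largest fold changes, of Ctsc and Ctsh, started from low levels.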

How the data were processed

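The authors deposited a table of raw read counts per gene, with 1 column per library and 19457 genes (lowest count 1). FastQC 0.11.7 and the mm10 genome are named in the submitters' processing notes; aligner, counter and strandedness were not given in the sources used here. Per the labels' protocols, total RNA was made into libraries with a TruSeq RNA kit. Columns marked NT were read as WT, the only genotype left. Counts were tested with edgeR 4.0.16 (R 4.3.3): filterByExpr removed 644 genes, TMM scaled the libraries, and all 16 libraries entered 1 quasi-likelihood fit with the 8 groups as coefficients (8 residual degrees of freedom, common biological coefficient of variation 10.1%). Each standard error was derived from the log2 fold change and its F statistic. With 2 libraries per group, p-values measure only the spread between these samples. Intervals use the t quantile at the degrees of freedom of that test.

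The members and all gene lists were chosen with earlier results of these data known. Members were named where they passed, up to 6 in each direction and comparison by fold change, and of the other lysosomal genes up to 4 in each direction in WT at 3 d. Other members named to complete a role group were chosen after their values were seen. Alternatives were DESeq2 1.42.0, limma-voom 3.58.1, RLE scaling, no or a stricter filter (5 CPM in 2 libraries), the compared groups alone, a replicate block, a cortical marker covariate and leaving out each library. Replicates differed beyond sampling noise, with chi-square over degrees of freedom from 9.44 to 31.7.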

Additional observations from a re-analysis of the deposited data

How the results depend on the processing

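The 2 libraries per group limit the precision of every count here. No called member changed sign under any alternative run. Counts are of members called in either direction. In WT at 6 h the count of 0 became 1 with DESeq2 and 3 with the compared groups alone. In WT at 3 d the count of 29 became 11 with the cortical marker covariate, which kept 11 calls and ended 18, and 18 when WT libraries rich in cortical markers were dropped (replicate 1 of intact, replicate 2 of 6 h, replicate 1 of 15 d), an alternative chosen after seeing the data. In WT from 3 d to 15 d the count of 3 became 5 with DESeq2, 0 with the compared groups alone and 5 without those 3 libraries. In GS at 6 h the count of 2 became 1 with RLE scaling and 10 with the compared groups alone. In GS from 3 d to 15 d the count of 6 became 12 with DESeq2, 3 with no filter and 10 with the compared groups alone. Between genotypes DESeq2 called 1 member in intact tissue, and 1 for the difference of responses at 6 h and 1 at 3 d, where it gave no adjusted p for 11 and 39 members (28 at 15 d). The cause of these shifts was not tested.

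Leaving out 1 library at a time gave 0 to 1 in WT at 6 h, 16 to 30 at 3 d, 24 to 34 at 15 d and 0 to 11 from 3 d to 15 d. In GS it gave 1 to 3 at 6 h, 27 to 33 at 3 d, 33 to 38 at 15 d and 0 to 9 from 3 d to 15 d, and it gave 0 in every genotype and response comparison. Over all genes, deviations of same-numbered libraries were at most weakly correlated (28 pairs of groups, correlation -0.0991 to 0.174, 3 over 0.1). Those 3 pairs were WT 3 d with WT 15 d (0.171), WT 3 d with GS 15 d (0.174) and WT 15 d with GS 15 d (0.147). At 3 d and at 15 d, replicate 1 of each genotype held a lower summed level of the members than replicate 2. Whether a shared batch lay behind this was not tested. With the replicate block the WT count from 3 d to 15 d became 7, and the other counts stayed within 1.5 times, with 30 in WT and 33 in GS at 3 d.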
